A study of Mus musculus with 24 samples.

Results

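The comparison described here sets 12 mice given the antidepressant duloxetine against 12 mice not given it, with treatment by the gut bacterium *Ruminococcus flavefaciens* as the other factor. All 24 mice of the series entered it, 6 in each of 4 groups, and the genes of interest were those that moved the same way with duloxetine whether or not the bacterium was given. RNA came from the medial prefrontal cortex (mPFC), taken with a 13 gauge needle from a 2 mm slice, with 1 library per mouse. According to the labels the animals were BALB/C mice in postnatal week 11, and according to the methods all were males of the BALB/c OlaHsd substrain, kept on a reversed light cycle and housed in groups. The control group (labelled no treatment) received PBS by both routes according to the methods, and the duloxetine group received 10 mg per kg of the drug by daily intraperitoneal injection. The *R. flavefaciens* group (labelled ruminococcus) was gavaged with live bacteria, 2 times per week after the first days, and the combined group (ruminococcus+duloxetine) received both. Treatment lasted 21 days before behavior was tested. The hour at which the tissue was collected, and the time since the last injection, are not given in the sources used here. Immediate early genes and clock genes are known to vary over such times, and the part of the collection times in their values was not tested.

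Duloxetine blocks the transporters that clear serotonin and norepinephrine from the synapse, so that both transmitters act for longer on their receptors. The β1-adrenergic receptor, encoded by *Adrb1*, couples to the stimulatory G protein and raises cAMP, and β-adrenergic receptors are known to be regulated by long exposure to their ligand. Neuronal activity, calcium and cAMP act on transcription within minutes through the immediate early genes, many of which carry binding sites for the factor CREB in their promoters. The circadian clock is a loop of transcription factors and their repressors that runs in nearly every cell, the cortex included, and several of its genes also respond to CREB and to glucocorticoids.

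The deposited table held 15456 genes, of which 14974 had a mean of at least 10 normalized counts and were tested. A normalized count is a gene's read count divided by a size factor of its library. The reads recovered from the table lay between 12811413 and 15607343 per mouse. Their medians were 13591497 for control and 13943370 for *R. flavefaciens* mice, and 14536037 for duloxetine and 14621656 for combined mice. Libraries of mice given duloxetine were therefore deeper, with a mean of 14642786 reads against 13769833 (exact permutation test within strata, two-sided, p = 0.000918). The distance of a mouse from the other mice of its group, taken as the root mean square difference of log2 values over all genes, was 0.304 to 0.330 in the control and 0.367 to 0.425 in the *R. flavefaciens* group, the widest of the 4. Markers of excitatory cortical neurons summed to a median of 105576 normalized counts with duloxetine and 102817 without, led by *Camk2a*. In 2 libraries markers of striatal neurons stood apart, with 9634 summed counts in *R. flavefaciens* mouse 8_4 and 6080 in combined mouse 11_4, against 3490 to 4808 in the other 22 mice. Mouse 8_4 also had 657 counts of *Ttr*, a marker of the choroid plexus, against 0 to 68.6 in the others. Counts of DEGs are therefore also given without both libraries.

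Averaged over both strata, 154 genes differed between mice given duloxetine and mice not given it (limma, adjusted p under 0.05), which is 1.03 percent of the genes tested. Of these DEGs 74 were higher (0.494 percent) and 80 were lower (0.534 percent). An unadjusted p under 0.05 was found for 2235 genes (14.9 percent), which are not independent of each other. The changes were small. Their median size was 0.27 on the log2 scale, 26 DEGs exceeded 0.5, and 3 exceeded 1, namely *Npas4*, *Tcim* and *8430408G22Rik*. Of these the last 2 are named here for their size after their values were seen. Both had low counts, with 2.08 to 21.36 normalized counts for *Tcim* and 2.09 to 60.69 for *8430408G22Rik*, the highest in duloxetine mouse 6_3. Their models also overlap another gene on the opposite strand, *Rassf4* over 2186 bases in the case of *8430408G22Rik*. The balance of directions depended on scaling. After rescaling each mouse to its 75th percentile 100 genes were higher and 47 lower, and after removal of a trend on transcript length 75 were higher and 203 lower. With sequencing depth as a covariate, which is tied to the drug in these mice, 58 were higher and 38 lower, and 54 of them were among the 154. Without mice 8_4 and 11_4, a choice made after the data were seen, 99 genes were higher and 78 lower, 129 of them among the 154, and none of the 154 changed sign.

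All 154 DEGs had the same sign in both strata. Because they were chosen on the average of the stratum differences, this and the counts that follow are raised by that choice and are given as a description. Without the bacterium 86 of them had an unadjusted p under 0.05, with the bacterium 153, and 85 in both. Over all genes, 153 (1.02 percent) had an unadjusted p under 0.05 in each stratum and a single direction, 64 of them higher and 89 lower, whereas 12 passed in both strata with opposite signs. Across all genes tested, 55.6 percent had the same sign in both strata, and the differences correlated with r = 0.202 as a description across genes, which are not independent of each other. The strata differed in how much they gave. No gene passed an adjusted p of 0.05 without the bacterium (0 percent, with 573 genes at an unadjusted p under 0.05, and 1 gene called by DESeq2), while 334 genes (2.23 percent) passed with it. The latter count fell to 47 without combined mouse 11_3, and to 155, 158, 178, 190 and 221 without mice 9_1, 12_2, 9_3, 12_3 and 7_2, and rose to 577 without mouse 8_4. It was 610 with DESeq2, 533 with a block on the first label number and 219 with depth as a covariate. In 138 of the 154 DEGs the difference was larger with the bacterium, with a median size of 0.34 against 0.18 on the log2 scale, beside 0.10 and 0.06 over all genes. The difference between strata passed the adjusted threshold for no gene (0 percent by limma, with 1128 genes at an unadjusted p under 0.05, and also 0 by DESeq2 and edgeR). An unadjusted interaction p under 0.05 was found for 41 of the DEGs (26.6 percent) and for 7.53 percent of all genes. The bacterium itself, averaged over the drug, gave an unadjusted p under 0.05 for 23 of the 154 (14.9 percent, against 18.1 percent of all genes), 10 of them in the direction of the drug.

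**Figure D1:**
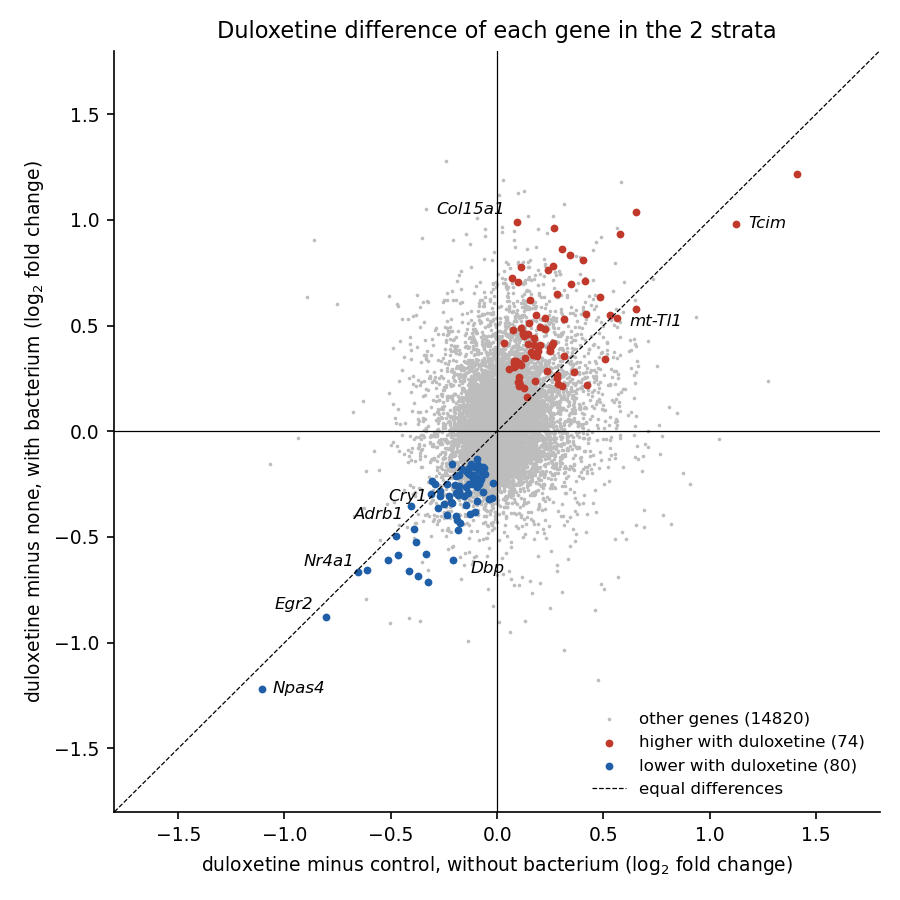
Log2 fold change of duloxetine for each tested gene without the bacterium (x axis) and with it (y axis), 6 against 6 mice each, with the 74 higher DEGs in red, the 80 lower in blue and all others in gray, and 1 gene beyond the axes not shown. All colored points lie in the quadrants of equal sign, and most lie farther from 0 on the y axis than on the x axis.

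*Adrb1* (ENSMUSG00000035283.4; chromosome 19 of GRCm38, 56722372 to 56724862, plus strand) had the smallest p of all genes. Its normalized counts were 592 to 748 in the control mice, with a median of 642, and 470.4 to 533 in the duloxetine mice, with a median of 497. Among the mice given the bacterium they were 595 to 716 (median 652) without the drug and 410.5 to 583 (median 441) with it. Every one of the 12 mice given duloxetine lay below every one of the 12 others. This was true of *Adrb1* and *mt-Nd5* alone among the genes tested (0.0134 percent), and the same 2 genes had no overlap within each stratum (0.0134 percent). The log2 fold change was -0.43 (standard error 0.055; limma, adjusted p = 0.000398), a decrease of 25.6 percent. *Adrb1* remained a DEG in all 11 other ways of testing and with each of the 24 mice left out.

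The adrenergic list held 8 receptors, and *Adrb1* was its only DEG (12.5 percent of the list against 1.03 percent of all genes). *Adra2c*, an inhibitory α2 receptor that acts partly on norepinephrine terminals, had a log2 fold change of -0.23 (adjusted p = 0.0929), with -0.09 without and -0.37 with the bacterium. *Adra1d*, an α1 receptor that couples to calcium release, had -0.21 (adjusted p = 0.375). The median of the list was -0.123, beside 0.003 for all genes. Of 11 serotonin receptors none passed the threshold (2 at an unadjusted p under 0.05), and the smallest p belonged to *Htr3a*, the subunit of the serotonin-gated ion channel, with -0.20 (adjusted p = 0.216). None of 9 genes for monoamine uptake, storage, synthesis and breakdown passed either (1 at an unadjusted p under 0.05). That one was *Maoa*, an enzyme that breaks down serotonin and norepinephrine, with 0.14 on the log2 scale (standard error 0.063; limma, adjusted p = 0.284). Its median counts were 418 with and 384 without the drug in mice not given the bacterium, and 427 and 397 in mice given it. The transporters that duloxetine binds, *Slc6a2* and *Slc6a4*, were not analysed here. Of 40 genes of cAMP signaling and of 21 receptor kinases, arrestins and RGS proteins none passed (4 at an unadjusted p under 0.05 in each list), with medians of -0.026 and -0.031. No dopamine receptor of 3 passed (1 at an unadjusted p under 0.05). Over all genes 1.03 percent were DEGs and 14.9 percent had an unadjusted p under 0.05.

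**Figure D2:**
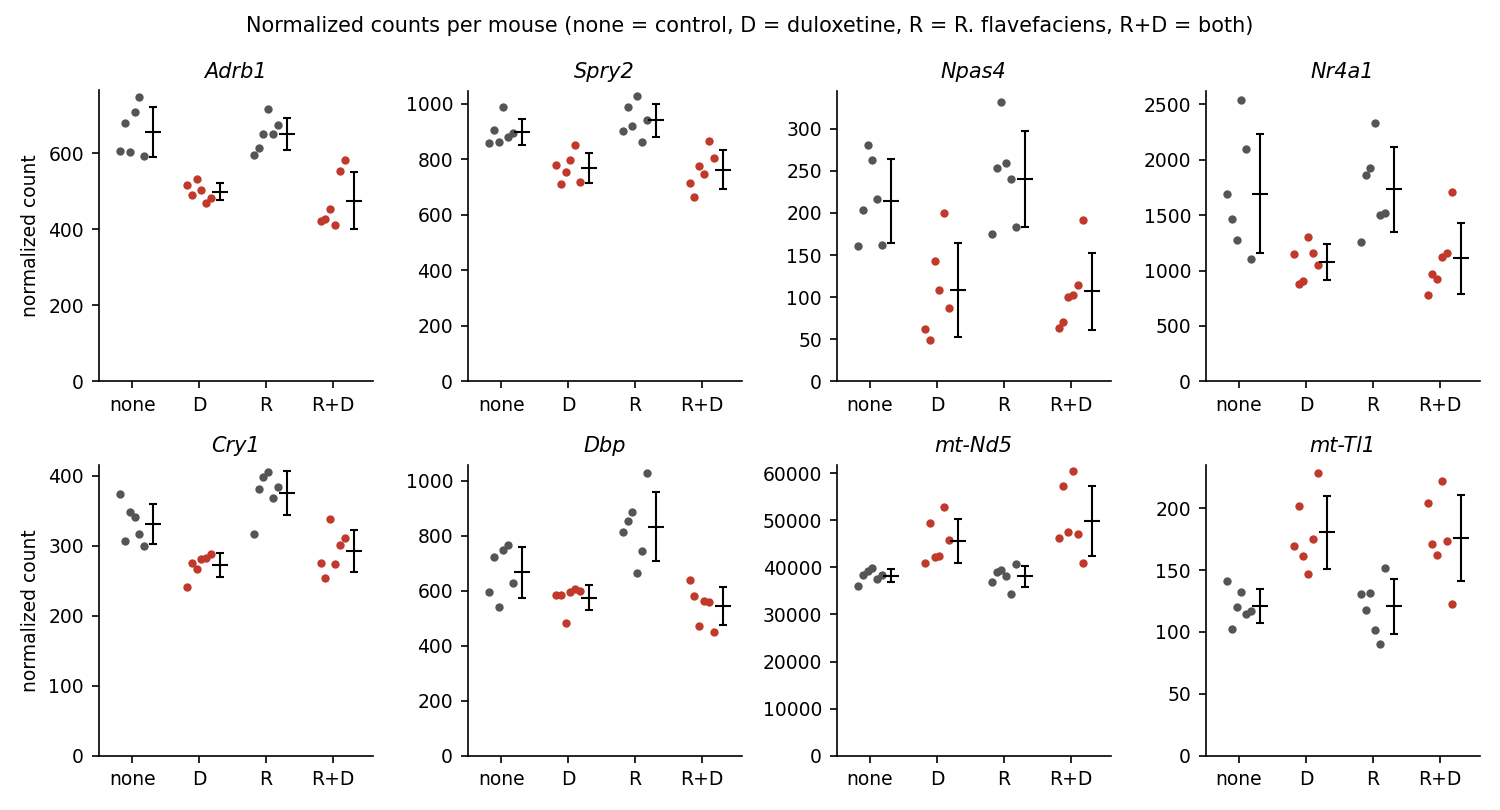
Normalized counts (y axis, from 0) of 8 genes in each mouse of the 4 groups (x axis), with mice given duloxetine in red, other mice in gray, and the group mean ± SD (n = 6) beside them. In *Adrb1* and *mt-Nd5* the red points do not overlap any gray point, and in *Npas4*, *Nr4a1*, *Cry1* and *Dbp* both red groups lie lower with some overlap.

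*Spry2* (chromosome 14, 105891947 to 105896819, minus strand) encodes a Sprouty protein that dampens growth factor signaling to ERK and is itself induced by that pathway. It had 859 to 988 normalized counts in the control mice (median 888) and 710.2 to 852 in the duloxetine mice (median 768). In the mice given the bacterium it had 863 to 1030.4 (median 932) without the drug and 664 to 868 (median 764) with it. The groups without the bacterium did not overlap, and 11 of the 12 mice given duloxetine lay below all mice not given it. The log2 fold change was -0.27 (standard error 0.042; limma, adjusted p = 0.00402). Of the 17 ERK feedback genes *Spry2* was the only DEG (5.88 percent, beside 1.03 percent of all genes). The list median was -0.094, and 6 had an unadjusted p under 0.05, which 14.9 percent of all genes had. *Dusp6*, a phosphatase of ERK, had -0.36 (adjusted p = 0.0807), and *Spry4*, another Sprouty gene, had -0.29 (adjusted p = 0.0815).

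The immediate early genes held the largest decreases. Of 31 tested, 7 were lower (22.6 percent, against 0.534 percent of all genes called lower) and none was higher, 26 had negative values, and the median was -0.206. The 7 were *Npas4*, *Nr4a1*, *Junb*, *Egr4*, *Egr1*, *Fos* and *Egr2*, all transcription factors. *Npas4*, which neurons induce upon calcium influx and which shapes inhibitory synapses, had 161 to 281 normalized counts in the control mice (median 209.8) and 49.0 to 199.6 in the duloxetine mice (median 97.8). With the bacterium it had 175 to 331 (median 246) without the drug and 63.7 to 191 (median 101) with it. A single mouse in each drug group reached the range of its comparison group, and 10 of the 12 mice given duloxetine lay below all others. The log2 fold change of *Npas4* was -1.16 (standard error 0.19; limma, adjusted p = 0.00402), and it was -1.11 without and -1.22 with the bacterium.

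*Nr4a1*, an orphan nuclear receptor, had medians of 1576 and 1098 normalized counts in the control and duloxetine groups and of 1690.3 and 1047 in the *R. flavefaciens* and combined groups. Its log2 fold change was -0.64 (standard error 0.13; limma, adjusted p = 0.0134), and the groups overlapped in both strata. *Fos*, a subunit of the AP-1 factor, had 370.2 to 734 counts in the control (median 492) and 254 to 403 in the duloxetine mice (median 302), and 382 to 714 (median 548) against 152 to 654 (median 337) with the bacterium. Its log2 fold change was -0.66 in the average and -0.66 and -0.67 in the strata (limma, adjusted p = 0.0387). *Junb*, its partner in AP-1, had -0.53 (adjusted p = 0.0136), and its model shares 351 bases with *Prdx2* on the opposite strand. The early growth response genes, which encode zinc finger factors, had -0.56 for *Egr1* (adjusted p = 0.0302), -0.84 for *Egr2* (adjusted p = 0.0392) and -0.54 for *Egr4* (adjusted p = 0.0248). For *Egr1* the range was 5176 to 8060 counts in the control and 3660 to 4955 in the duloxetine mice, without overlap, but 4529 to 8048 and 2117 to 6743 with the bacterium. None of the 7 had an interaction p under 0.05, from 0.294 for *Egr4* to 0.974 for *Fos*. With sequencing depth as a covariate 1 of the 31 genes, *Npas4*, passed the threshold and the median of the list was -0.266. Over the mice left out in turn 3 to 11 of the 31 passed, with 3 without control mice 2_1 and 3_1, duloxetine mouse 5_3 and combined mouse 11_3, 4 without mice 2_3 and 9_1, and 11 without combined mouse 12_4. *Fos* passed in 11, *Egr2* in 9, *Egr1* in 18 and *Egr4* in 20 of those 24 fits, while *Npas4*, *Nr4a1* and *Junb* passed in all 24. *Fos* and *Egr2* missed the threshold without mice 8_4 and 11_4, when 5 of the list passed. *Egr2* missed it with edgeR as well.

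The promoters of these genes were read from RefSeq (GRCm38.p6), 250 bases before to 50 after each start. A promoter entry was matched for 65 of the 80 lower and 50 of the 74 higher DEGs. The short motif of the cAMP response element, TGACG on either strand, was present in 36 of the 65 promoters of lower DEGs (55.4 percent), in 14 of the 50 of higher DEGs (28 percent) and in 34.5 percent of 11123 promoters of tested genes. Among the matched immediate early genes it was present in 15 of 22 (68.2 percent). The complete element, TGACGTCA, which contains the short motif, was present in 4.62 percent of lower, 2 percent of higher and 3.61 percent of all promoters, and in 2 of 22 immediate early genes (9.09 percent). The GC box, GGGCGG on either strand, was present in 78.5 percent of lower, 64 percent of higher and 67.6 percent of all promoters, and the promoters of lower DEGs had a median GC content of 64.3 percent against 60.8 percent for all. A match is a description of the letters, and neither these counts nor their relation to GC content were tested. *Nr4a1*, with 4 matches, is not shown. The stretches below are 60 bases each, 5′ to 3′ on the strand of the gene. They show the motif in capitals in *Adrb1* and, as examples, in 4 of the lower immediate early genes. The stretch of *Adrb1* lies 118 to 59 bases before its RefSeq start, which is upstream of the start of the gene model given above.
Adrb1, chr19:56721999-56722058, plus strand: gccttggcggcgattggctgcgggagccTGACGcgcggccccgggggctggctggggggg
Npas4, chr19:4990109-4990168, minus strand: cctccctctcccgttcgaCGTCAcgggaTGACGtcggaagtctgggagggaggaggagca
Fos, chr12:85473796-85473855, plus strand: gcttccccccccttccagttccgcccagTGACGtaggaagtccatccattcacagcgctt
Junb, chr8:84978823-84978882, minus strand: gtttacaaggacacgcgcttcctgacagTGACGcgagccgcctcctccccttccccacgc
Egr4, chr6:85513667-85513726, minus strand: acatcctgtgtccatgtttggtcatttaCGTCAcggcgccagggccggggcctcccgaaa

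Several circadian clock genes were lower with duloxetine. Of 21 tested, 5 fell (23.8 percent, against 0.534 percent of all genes called lower) and none was higher, 16 had negative values, and the median was -0.150. *Cry1*, a repressor of the clock's own activators (chromosome 10, 85131700 to 85185064, minus strand), had 299 to 374 normalized counts in the control mice (median 328) and 240.5 to 288 in the duloxetine mice (median 278). With the bacterium it had 316 to 405 (median 382) without and 254 to 338 (median 288) with the drug. The groups without the bacterium did not overlap, and 9 of 12 mice given duloxetine lay below all others. The log2 fold change of *Cry1* was -0.32 (standard error 0.052; limma, adjusted p = 0.00402). Its paralog *Cry2* had -0.17 (adjusted p = 0.0178), and the model of *Cry2* shares 23417 bases with *D930015M05Rik* on the opposite strand.

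*Dbp*, an output factor that the clock drives in a strong daily rhythm, had a median of 675 in the control and 590 normalized counts in the duloxetine group, and 834 and 560 with the bacterium, where the groups did not overlap. *Dbp* fell by 0.41 on the log2 scale (standard error 0.069; limma, adjusted p = 0.00497). The differences were -0.21 without and -0.61 with the bacterium, and the unadjusted interaction p of 0.00725 from the same limma fit did not pass adjustment. With depth as a covariate *Dbp* missed the threshold. *Tef*, of the same family of factors as *Dbp*, had -0.17 (adjusted p = 0.013), with -0.09 and -0.25 in the strata, and missed the threshold under quantile normalization (adjusted p = 0.0568). *Nr1d2*, which encodes a REV-ERB repressor, also had -0.17 (adjusted p = 0.0407) but passed in 8 of the 24 fits with a mouse left out. It missed the threshold without mice 8_4 and 11_4, after 75th percentile rescaling, under quantile normalization and with depth as a covariate. *Per1*, another repressor that glucocorticoids and CREB induce, had -0.28 and missed the threshold (adjusted p = 0.0543). Between 3 and 7 clock genes passed under the other ways of testing, with 3 under quantile normalization and with depth as a covariate, and 4 to 7 with a mouse left out. *Dbp* shares 737 bases with *Sphk2* on the opposite strand, and since the library kit does not mark strand, reads there cannot be assigned to either gene.

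The E-box of the clock's activators, CACGTG, was present in 11 of the 65 promoters of lower DEGs (16.9 percent), in 5 of 18 matched clock genes (27.8 percent) and in 11.5 percent of all promoters of tested genes. It was present in 5 of 22 matched immediate early genes as well (22.7 percent), and clock promoters had a median GC content of 66.2 percent against 60.8 percent for all. These shares were not tested. The stretches below show it in capitals in *Cry1* and *Tef*, and in *Otud1*, a lower DEG outside the clock that is described further on.
Cry1, chr10:85185082-85185141, minus strand: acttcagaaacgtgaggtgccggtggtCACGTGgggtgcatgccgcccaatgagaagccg
Tef, chr15:81802519-81802578, plus strand: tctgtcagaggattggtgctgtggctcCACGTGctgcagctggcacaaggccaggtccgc
Otud1, chr2:19657650-19657709, plus strand: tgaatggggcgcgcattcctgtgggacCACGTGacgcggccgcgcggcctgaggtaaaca

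**Figure D3:**
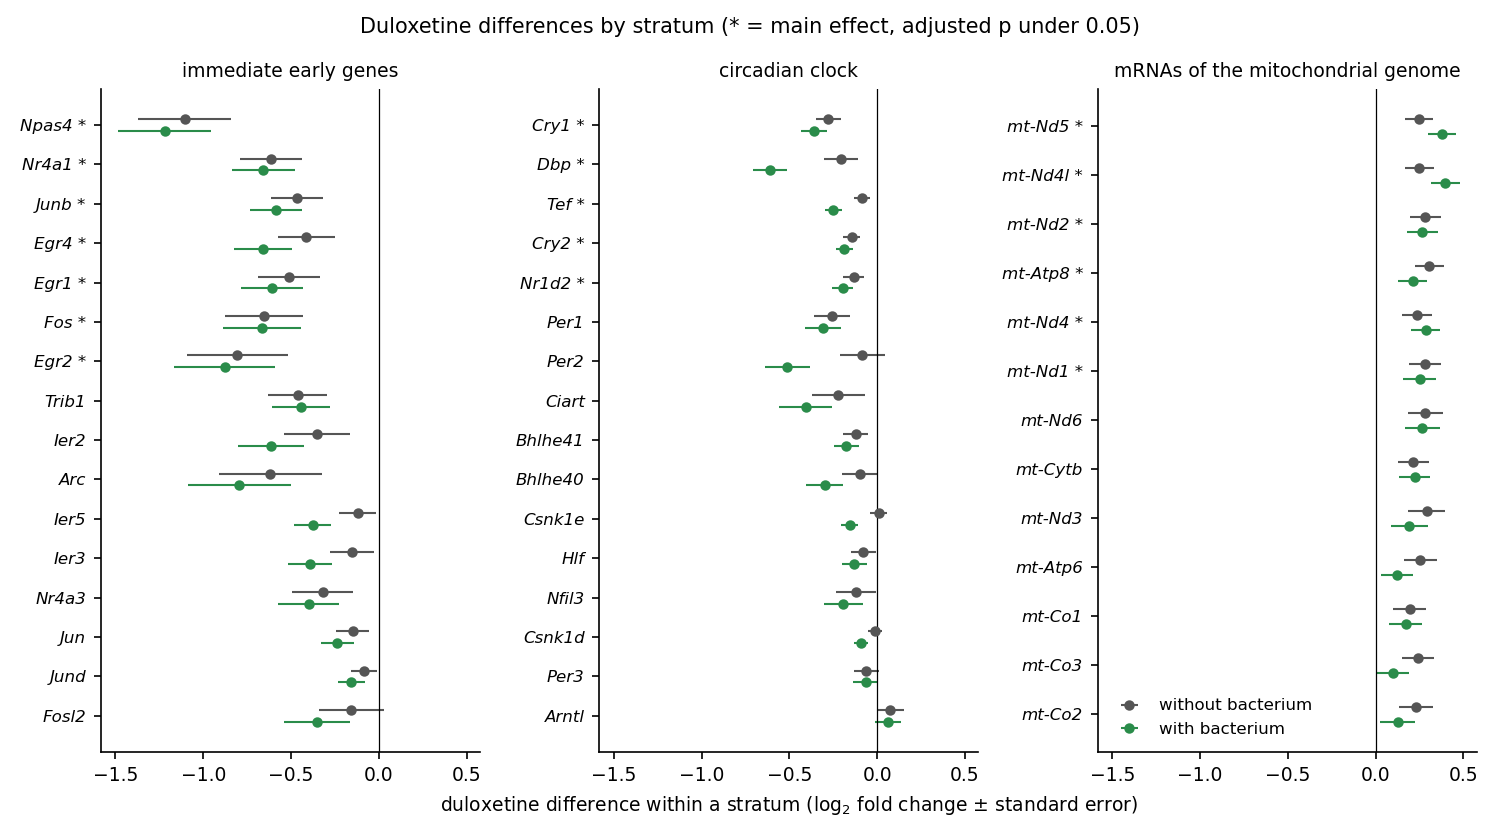
Log2 fold change ± standard error of duloxetine without the bacterium (gray) and with it (green), on the x axis, for the 16 immediate early genes and 16 clock genes with the smallest p and for the 13 mRNAs of the mitochondrial genome, with an asterisk on DEGs. All immediate early genes drawn lie below 0 in both strata, *Dbp* and *Per2* lie farther from 0 with the bacterium, and all 13 mitochondrial mRNAs lie above 0 in both.

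Several transcripts of the mitochondrial genome were higher with duloxetine. This genome encodes 13 subunits of the respiratory chain and ATP synthase, and its RNAs are made as long precursors from both strands. All 13 mRNAs had positive values, with a median of 0.258, and 6 were DEGs (46.2 percent, against 0.494 percent of all genes called higher). *mt-Nd5* (bases 11742 to 13565 of the mitochondrial genome) encodes a complex I subunit and had 36028 to 39890 normalized counts in the control mice (median 38320) and 40857 to 52869 in the duloxetine mice (median 44112). With the bacterium it had 34410 to 40647 (median 38540) without and 40873 to 60500 (median 47284) with the drug, so that all 12 mice given duloxetine lay above all others. Its log2 fold change was 0.31 (standard error 0.056; limma, adjusted p = 0.00735). The other DEGs were *mt-Nd4l*, *mt-Nd2*, *mt-Nd4* and *mt-Nd1*, also of complex I, with values from 0.26 to 0.32, and *mt-Atp8* of ATP synthase with 0.26. Of 16 mitochondrial tRNA genes 15 had positive values, as had 7687 of all 14974 genes, and 2 were DEGs, beside 0.494 percent of all genes called higher. *mt-Tl1*, a leucine tRNA whose gene adjoins *mt-Nd1*, had medians of 118 and 172 normalized counts without and of 124 and 172 with the bacterium, which is 0.55 higher on the log2 scale (standard error 0.093; limma, adjusted p = 0.00497). The libraries were selected for poly(A), so counts on tRNA genes come from whatever transcripts carried a tail and cover that stretch, and nuclear copies of mitochondrial sequence may share reads with all of these genes.

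The share of all recovered reads that fell on the mitochondrial genome was 4.04 to 4.61 percent in the control (median 4.28) and 4.50 to 5.98 percent in the duloxetine mice (median 4.94). It was 4.20 to 6.12 percent in the *R. flavefaciens* mice (median 4.60) and 4.57 to 6.62 percent in the combined group (median 5.32). The means were 5.28 percent with and 4.59 percent without duloxetine (exact permutation test within strata, two-sided, p = 0.01). With depth as a covariate *mt-Nd5* was the only one of the DEGs among these mRNAs to pass, and *mt-Nd4l*, *mt-Nd2*, *mt-Nd4*, *mt-Nd1* and *mt-Atp8* missed the threshold. A further 1 of the 13 mRNAs, not a DEG of the main fit, passed there, and the median was 0.282. Under quantile normalization 4 of the 13 passed and the median was 0.087. With a mouse left out 2 to 9 of the 13 passed, with 2 without control mice 2_1 and 3_1, duloxetine mouse 5_3 and combined mouse 11_3, 3 without mice 6_2, 6_3 and 12_2, and 9 without mouse 9_3. *mt-Nd1* passed in 5 of those 24 fits and missed the threshold without mice 8_4 and 11_4, when 5 of the 13 passed. Nuclear genes of the same complexes held no DEG, which in lists of this size is close to the 1.03 percent of all genes called. An unadjusted p under 0.05 was found for 14.9 percent of all genes. Of 46 subunits of complexes I and III none passed (4 at an unadjusted p under 0.05), with a median of -0.041 that was 0.031 without and -0.115 with the bacterium, and of 30 nuclear subunits of complex IV and ATP synthase none passed (1 at an unadjusted p under 0.05), with 0.029 and -0.110.

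Among the other lower DEGs, *Mthfd1l*, the mitochondrial enzyme that releases formate from folate one-carbon units, came next after *Adrb1* by p. Its counts were 266 to 351 in the control (median 322) and 250.5 to 299.5 in the duloxetine mice (median 279), and 288 to 320.2 (median 308) against 218 to 245 (median 230.2) with the bacterium, where the groups did not overlap. The log2 fold change of *Mthfd1l* was -0.30 (standard error 0.045; limma, adjusted p = 0.00329), and it was the only DEG of 23 folate genes (4.35 percent, beside 1.03 percent of all genes), whose median was -0.008. *Otud1*, a deubiquitinase (chromosome 2, 19657752 to 19660583, plus strand), had medians of 636 and 549.7 in the strata without and of 642 and 479 with the bacterium, a log2 fold change of -0.32 (adjusted p = 0.0043). *Siah2*, a ubiquitin ligase, had -0.28 (adjusted p = 0.0314), and these were the only DEGs of 157 genes of ubiquitin ligation and removal (1.27 percent, beside 1.03 percent of all genes), whose median was -0.012. Over the other ways of testing 1 (with depth as a covariate) to 6 (with DESeq2) genes of that list passed. *Siah2* missed the threshold with depth as a covariate (limma, adjusted p = 0.0965) and without any one of mice 5_3, 6_3, 2_1, 2_3, 3_1, 9_1 or 11_3.

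*Aimp2*, a scaffold of the tRNA synthetase complex, had -0.28 (adjusted p = 0.00497), with 11 of 12 mice given duloxetine below all others, though its model overlaps *Eif2ak1* on the opposite strand and it missed the threshold with depth as a covariate (adjusted p = 0.0518). *Ppp1r15b*, which encodes a regulatory subunit of a protein phosphatase, had -0.19 (adjusted p = 0.00537). No gene of 23 in the list for the integrated stress response, which does not hold *Ppp1r15b*, passed, beside 1.03 percent of all genes. Of these 23, 3 had an unadjusted p under 0.05, beside 14.9 percent of all genes. *Mycn*, a transcription factor of growth, fell by 26.9 percent, with a log2 fold change of -0.45 (adjusted p = 0.0116). *C2cd2l*, which carries phosphatidylinositol between membranes, had -0.16 (adjusted p = 0.0116, and 0.0785 with depth as a covariate). *Ccng2*, an unusual cyclin that slows the cell cycle, had -0.18 (adjusted p = 0.0116), but its median changed from 674 to 654 normalized counts without the bacterium and from 729.6 to 582 with it, the latter without overlap. Its interaction had an unadjusted p of 0.000281, which did not pass adjustment. *Dnajb1*, a co-chaperone of HSP70 induced by heat shock, had -0.33 (adjusted p = 0.0243). It missed the threshold without control mouse 3_1 and without combined mouse 11_3. It was the only DEG of 32 chaperone genes (3.12 percent, beside 1.03 percent of all genes). Of these 30 had negative values, with a median of -0.064, as had 7287 of all 14974 genes. *Chrm4* and *Hrh3*, receptors for acetylcholine and histamine that couple to inhibitory G proteins, were lower as well, with -0.38 (adjusted p = 0.0123) and -0.23 (adjusted p = 0.0134), and are named after their values were seen.

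Among the higher DEGs with the smallest p, apart from mitochondrial ones, *Zranb2*, an RNA-binding zinc finger protein of splicing, had medians of 1642 and 1795 normalized counts without and of 1679.8 and 1956 with the bacterium. The latter groups did not overlap, and the log2 fold change was 0.17 (standard error 0.031; limma, adjusted p = 0.0116). *Srsf5*, a splicing factor of the SR family, had 0.39 (adjusted p = 0.0304), composed of 0.15 without and 0.62 with the bacterium. It missed the threshold in the additive fit (adjusted p = 0.0517) and without any one of mice 5_3, 2_1, 3_1, 11_3 or 12_2. *Srsf5* was the only DEG of 92 splicing genes (1.09 percent, beside 1.03 percent of all genes), whose median was -0.010, though 29 of them had an unadjusted p under 0.05, which 14.9 percent of all genes had. *Arrdc2*, an arrestin-domain gene that glucocorticoids induce, had medians of 69.6 and 103.7 without and of 84.3 and 121 with the bacterium, which is 0.54 higher on the log2 scale (standard error 0.11; limma, adjusted p = 0.0135). It was the only DEG of 28 corticosteroid receptors and glucocorticoid targets (3.57 percent, beside 1.03 percent of all genes). *Ddit4*, an inhibitor of mTOR induced by stress and glucocorticoids, had 0.40 and narrowly missed the threshold (adjusted p = 0.0507). In this list 17 genes had positive and 11 negative values, and the median was 0.035.

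*F3*, which encodes tissue factor and is made by astrocytes in the brain, had 217 to 333 normalized counts in the control (median 268) and 317 to 489 in the duloxetine mice (median 353), and 299 to 399.8 (median 342) against 360.1 to 543 (median 416) with the bacterium. The groups overlapped in both strata and the log2 fold change was 0.42 (standard error 0.083; limma, adjusted p = 0.013). *Trpv6*, a calcium channel, had 0.34 (adjusted p = 0.0116), and *Cmah*, an enzyme that modifies sialic acid, had 0.29 (adjusted p = 0.0116), with 0.12 without and 0.45 with the bacterium. *Vps37a*, a subunit of the endosomal sorting complex ESCRT, had 0.17 (adjusted p = 0.0123). *Gm28043*, *AC165080.4* and *9330151L19Rik*, which have no settled function, had 0.56, 0.38 and 0.26 (adjusted p = 0.0122, 0.0123 and 0.013). The model of *Gm28043* spans *Rnf8* and *Cmtr1* on its own strand. On the opposite strand *9330151L19Rik* overlaps *Dnaaf2*, *Vps37a* overlaps *Cnot7*, and *Cmah* overlaps *Gm11342* over 78867 bases. The counts of these DEGs are therefore uncertain. With depth as a covariate *Trpv6*, *Vps37a*, *Gm28043* and *9330151L19Rik* missed the threshold (limma, adjusted p = 0.108, 0.0526, 0.0564 and 0.0607).

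The kinds of gene among the higher and lower DEGs were counted, and no difference between them was tested. The median of the mean normalized counts was 180 in the higher DEGs, 517.7 in the lower and 283.8 in all genes tested. Genes other than protein-coding ones made up 14 of the 74 higher DEGs (18.9 percent), 0 of the 80 lower and 8.74 percent of all tested. The longest annotated transcript had a median of 4346 bases in the higher, 2966 in the lower DEGs and 3431 in all genes tested, and across genes length and fold change had a Spearman correlation of 0.113. A model that overlaps another gene was found for 81 of the 154 DEGs (52.6 percent) and for 56.3 percent of all tested genes with a model, and 63 DEGs (40.9 percent, against 45.2 percent) overlap a gene on the opposite strand.

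**Figure D4:**
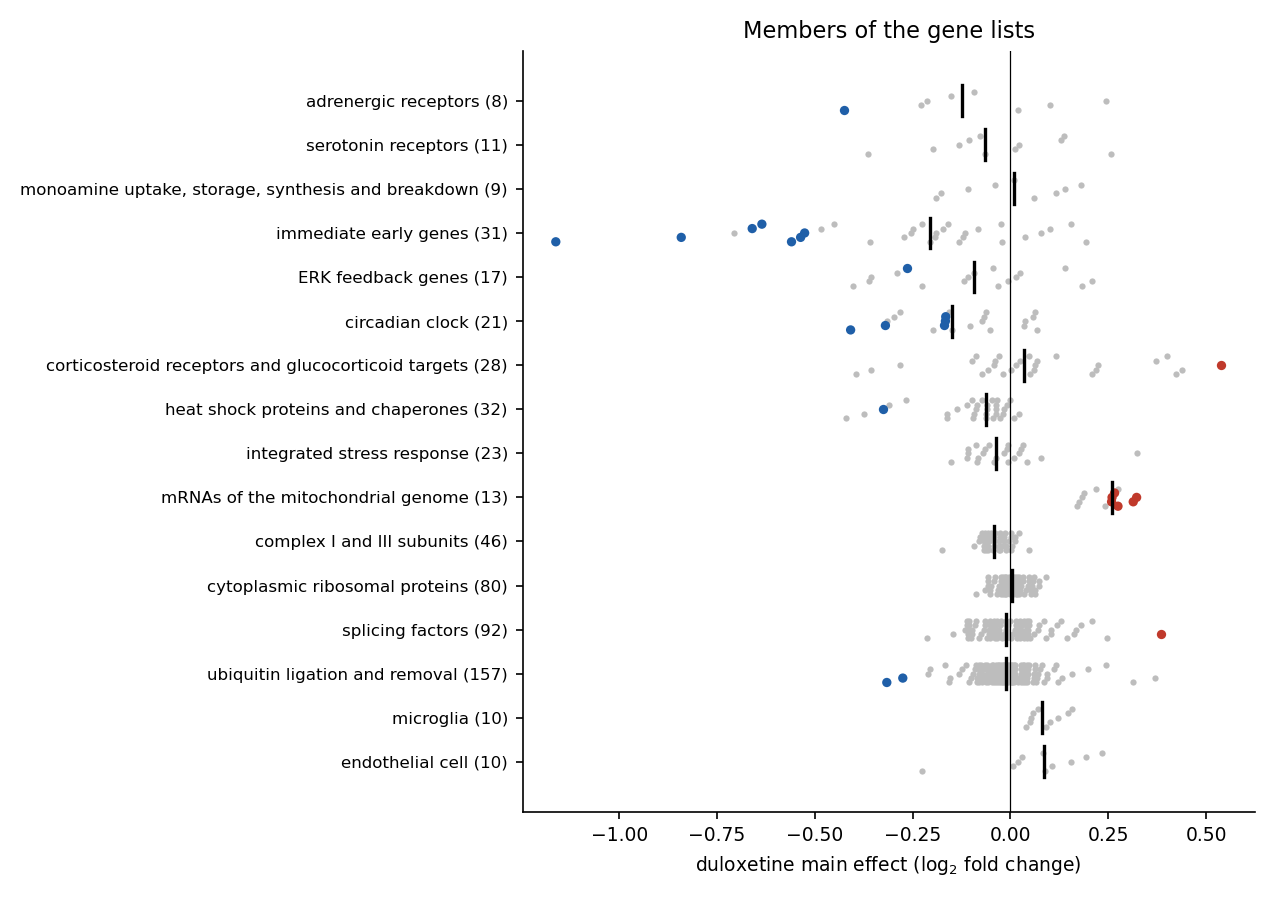
Log2 fold change of duloxetine averaged over strata (x axis) for the members of 16 gene lists (number tested in parentheses), with higher DEGs in red, lower in blue, others in gray, and the list median as a black bar. The medians of immediate early and clock genes lie at -0.206 and -0.150, and that of mitochondrial mRNAs at 0.258. Those of ribosomal protein, splicing and ubiquitin genes lie within 0.012 of 0. The ribosomal median was 0.082 without and -0.068 with the bacterium.

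Of all genes tested, 1.03 percent were DEGs and 14.9 percent had an unadjusted p under 0.05. In lists of the sizes below, 0 DEGs is therefore close to the share of all genes. Lists for receptors and channels of synaptic transmission held no DEG. This was so for 17 ionotropic and 7 metabotropic glutamate receptors (2 genes at an unadjusted p under 0.05 in each), 13 GABA-A receptor subunits (0 at an unadjusted p under 0.05) and 53 voltage-gated ion channels (1 at an unadjusted p under 0.05), with medians from -0.016 to 0.027. It was so as well for 26 neurotrophins and secreted proteins regulated by activity (2 at an unadjusted p under 0.05). The same held for 85 cadherins and protocadherins (8), 50 Wnt genes (7) and 27 genes of cholesterol synthesis and uptake (6). It also held for 27 interferon and MHC class I genes (1) and 80 cytoplasmic ribosomal proteins (0). Medians without and with the bacterium were 0.087 and -0.076 for the interferon and MHC class I genes. For the ribosomal proteins they were 0.082 and -0.068, with 3 negative values without and 77 with the bacterium, and 6 had the same sign in both. The smallest interaction p of all genes belonged to *Znrf3*, a ligase that removes Wnt receptors, with -0.08 without and 0.30 with the bacterium (unadjusted p = 7.67e-05), and it was not a DEG of the average (adjusted p = 0.188).

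Markers of cell types were examined beside these results. Of 14 short lists 1, that of leptomeningeal fibroblasts, held a single DEG among 10 genes tested (10 percent, beside 1.03 percent of all genes called). The other lists held none. The medians of the other lists lay between -0.142 and 0.136. The DEG of the leptomeningeal list was *Col15a1*, a basement membrane collagen with 0.54 (adjusted p = 0.0316). It had 0.10 without and 0.99 with the bacterium, missed the threshold in the additive fit (adjusted p = 0.0786) and passed in 15 of the 24 fits with a mouse left out, and the other 9 members of its list had negative values. All 10 microglia markers had positive averages, with a median of 0.081, but 5 of them had the same sign in both strata, and the medians were 0.181 without and 0.036 with the bacterium. Their summed counts were 4586 to 6752 with duloxetine (median 5477) and 4366 to 6176 without (median 5002), led by *Csf1r*. An unadjusted p under 0.05, which 14.9 percent of all genes had, is given below for some lists. Of 10 astrocyte markers, to be set beside *F3*, 4 had such a p, 5 were positive and the median was 0.023. Their summed counts were 60500 to 84572 with duloxetine (median 68771) and 50554 to 72183 without (median 63538), led by *Slc1a2*. Of 7 pericyte and smooth muscle markers 5 were positive and 3 had an unadjusted p under 0.05, with a median of 0.092 and summed medians of 3472 against 3075, led by *Rgs5*. All 5 blood cell markers likewise had positive averages (median 0.136), of which 3 were negative with the bacterium, where the median was -0.023. Of 10 endothelial markers 9 were positive, with a median of 0.085, and *Cldn5*, which encodes a tight junction protein, had -0.23 (adjusted p = 0.234). Their median was 0.120 without and 0.051 with the bacterium, with summed counts of 3654 to 5915 (median 4612) against 3833 to 4899 (median 4333), led by *Flt1*. For 10 markers of striatal neurons 9 were negative, with a median of -0.142 and summed medians of 3825 with and 3947 without the drug. Among the higher DEGs *Col4a1* and *Col4a2*, the chains of basement membrane collagen, had 0.27 and 0.27, *Adgrf5*, a receptor of endothelial cells, had 0.29, and *Ptprc*, the pan-leukocyte antigen CD45, had 0.56 (adjusted p = 0.0243, 0.0316, 0.0338 and 0.0258). In the other direction *Sox18*, a transcription factor of endothelial cells, had -0.52 (adjusted p = 0.0311). These 5 genes are named after their values were seen. In bulk tissue more cells of a type and more RNA per cell cannot be told apart, and the part of cell composition in these differences was not tested.

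The number of DEGs rested on single mice. With each mouse left out in turn it ranged from 46 to 260, with a median of 108.5. It fell to 46 without control mouse 3_1, 50 without combined mouse 11_3, 53 without control mouse 2_1 and 60 without duloxetine mouse 5_3. It was between 77 and 97 without mice 9_1, 12_2, 2_3, 6_1, 6_3 and 5_4, and rose to 260 without combined mouse 12_4. In these 24 fits 43 of the 154 genes passed every time, among them *Adrb1*, *Mthfd1l*, *Spry2*, *Npas4*, *Cry1*, *Otud1*, *Dbp*, *Nr4a1*, *Junb*, *mt-Nd5* and *mt-Tl1*. Over the 11 other ways of testing 37 genes passed every time, and 24 passed in all of these fits. No DEG changed sign in any of them.

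**Figure D5:**
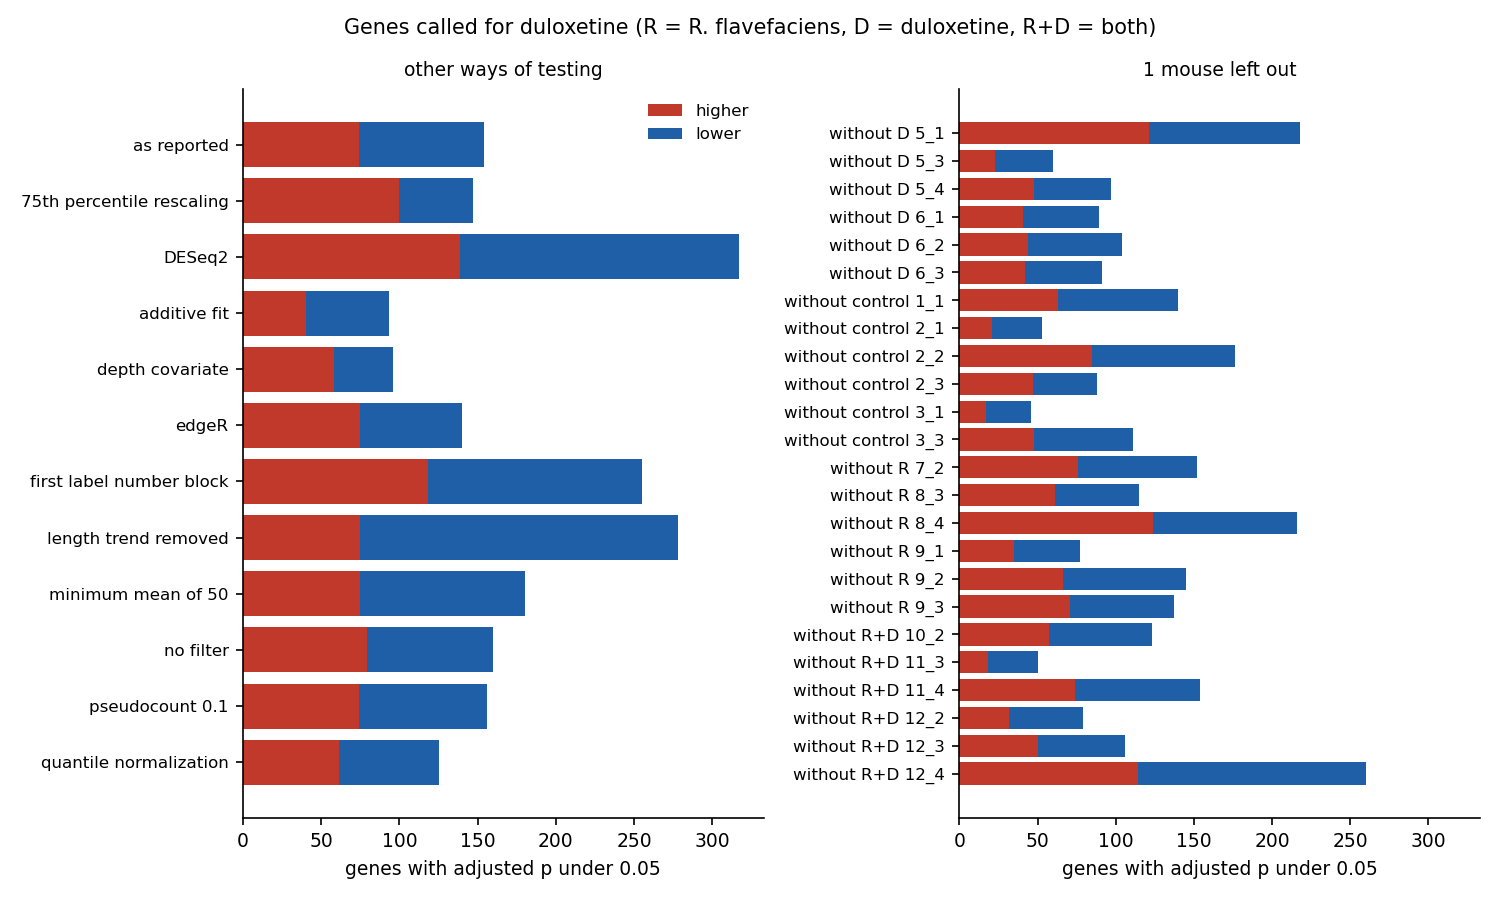
Number of genes higher (red) and lower (blue) with duloxetine at an adjusted p under 0.05 (x axis) as reported and in 11 other ways of testing (left), and with each of the 24 mice left out (right). The total ranges from 93 to 317 on the left and from 46 to 260 on the right.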

How the data were processed

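Poly(A) RNA from 24 libraries was prepared by the authors from 100 ng of total RNA. The submitters' processing notes name TopHat2 2.1.0, Bowtie2 2.2.6, DESeq2 1.18.1 and mm9, whereas the methods name GRCm38.p5. Gene positions in the table matched GENCODE vM21 (GRCm38) for 14285 of 15456 genes, so that build is used. The counting program, its use of strand and the gene filter are not given in the sources used here. The deposited signal values are counts that the authors divided by 1 size factor per mouse, and 99.997 percent of the non-zero values were whole multiples of a step (tolerance 0.0051), which gave back the reads and the depth. No duplicate library was found, as chi-square per degree of freedom was 2.11 to 26.8 over 60 pairs of same-group mice.

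Values were analyzed as log2(value + 1) with limma 3.58.1 (trended prior, two-sided) in R 4.3.3 in 1 fit of 4 groups on the genes whose mean reached 10. The main contrast averaged the drug differences of both strata. Adjustment was by Benjamini and Hochberg over 14974 genes, with a threshold of 0.05. Fold changes are on the log2(value + 1) scale and understate the change of low genes. Single values were tested by exact permutation of the drug within strata (853776 groupings). Where nothing says that mice came from separate cages, p-values measure the spread between these mice. Some mice of each group share a first label number, and these numbers are nested in the groups. Whether they stand for cages is not given in the sources used here. Alternatives were edgeR 4.0.16 and DESeq2 1.42.0 on recovered reads and the settings named in the closing section. The code was tested on simulated data. Tables were handled with Python 3.11.15, pandas 2.3.3, numpy 2.4.6 and scipy 1.17.1, and figures drawn with matplotlib 3.10.9.

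The members of this comparison, the 28 pathway and 14 marker lists and the tests were chosen with earlier results of these data known. Named genes are the 12 higher and 12 lower DEGs with the smallest p, the 3 members with the smallest p and every DEG of each list, *Maoa*, *Adrb1*, *Slc6a2* and *Slc6a4* (the last 2 not analysed here), the gene with the smallest interaction p and the 3 DEGs of highest count. Promoter sequences are from RefSeq (GRCm38.p6).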

Additional observations from a re-analysis of the deposited data

Results flagged for a closer look

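In 8 of 164 groups of 6 mice, examined for the 41 DEGs named by rule, a single mouse lay far from the other 5, and chance alone is known to give about 1 in 20 such groups. Duloxetine mouse 5_4 had the highest *Trpv6* (167.9 normalized counts, next 143) and the lowest *Dbp* (481.7, next 583) of its group. Combined mouse 12_4 had the lowest *Gm28043* (28.15, next 38.4) and the lowest *Tef* (4786, next 5299), and *R. flavefaciens* mouse 9_3 had the lowest *Vps37a* (757.1, next 871) and the highest *mt-Nd1* (56950, next 44100). Control mouse 2_3 had the highest *Spry2* (988.5, next 907), and *R. flavefaciens* mouse 9_1 the highest *Egr2* (522.6, next 332).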

How the results depend on the processing

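The 154 DEGs, 74 higher and 80 lower, depended on the tool and scaling in number and not in sign. DESeq2 gave 139 higher and 178 lower, and an adjusted p under 0.1 gave 170 and 204. A random block on the first label number gave 118 and 137 (correlation within blocks -0.0451). That number is nested in the groups, and its meaning is not given in the sources used here. The additive fit gave 40 and 53, all 93 among the 154, and no value for single strata or the interaction. Rescaling to the 75th percentile gave 100 higher and 47 lower, removal of the length trend 75 and 203, and depth as a covariate 58 and 38. The 153 genes of both strata became 394 with depth as a covariate. With edgeR on the recovered reads (75 higher and 65 lower), quantile normalization, no filter, a minimum mean of 50 and a pseudocount of 0.1 these 3 counts stayed within 1.5 times. With a mouse left out, 17 (without control mouse 3_1) to 124 (without *R. flavefaciens* mouse 8_4) genes were higher and 29 (without 3_1) to 146 (without combined mouse 12_4) lower. Leaving out mice 8_4 and 11_4, chosen after seeing the data, gave 99 higher, 78 lower and 158 of both strata, and 4 of the 41 DEGs named by rule (*Fos*, *Egr2*, *Nr1d2* and *mt-Nd1*) lost the threshold. The interaction gave 0 genes in every fit that holds the term. For those 41 DEGs, 1289 values under the planned settings kept their side of the threshold, 144 lost it and 0 changed sign. Of 980 list medians 2 moved beyond the spread, mitochondrial mRNAs under quantile normalization (0.087) and ionotropic glutamate receptors with depth as a covariate (-0.052). The causes were not tested. No paired analysis was possible because each mouse label belongs to 1 mouse. Depth and drug were tied, and no scaling moved the median of all genes by more than 0.022.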
